A study of Mus musculus with 6 samples.

Results

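Purine breakdown and salvage is described here through 9 genes of the 21367 in the deposited table, *Entpd1*, *Nt5e*, *Ada*, *Pnp*, *Gda*, *Xdh*, *Adk*, *Hprt* and *Aprt*. They were found by gene symbol, and all 9 were present. The set was chosen by function, but with the differences between *Ptpn6*+/mev and wild-type kidneys in these same libraries already known. The fold changes and adjusted p-values of the 9 genes are therefore given as a description of that comparison.

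Kidneys of 3 *Ptpn6*+/mev mice were compared with those of 3 wild-type littermates, all 7 weeks old and on the C57BL/6J background, with no sex given in the sources used here. *Ptpn6* encodes the phosphatase SHP-1, and *Ptpn6*+/mev mice are heterozygous for its viable motheaten mutation in every cell of the body, a genotype that the labels call an SHP1 knockdown. Every mouse, wild-type or *Ptpn6*+/mev, lost its right kidney, had the left renal pedicle clamped for 34 min and was killed after 24 h of reperfusion. RNA of the left kidney gave 1 poly-A mRNA library per mouse, so both groups are injured kidneys, and uninjured kidneys were not analysed here.

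Total counts per library were 10271590 to 12361745. *Ptpn6* was read at 17.5, 10.9 and 15.4 FPKM (fragments scaled to the transcript's length and to the library's size) in wild-type replicates 1 to 3 and at 11.9, 14.7 and 13.6 FPKM in the *Ptpn6*+/mev mice, with overlapping groups (log2 fold change -0.19, SE 0.17, adjusted p = 0.715, and -0.34 without wild-type replicate 2). The mev allele alters splicing, which a total per gene does not read, so this level does not check the genotype. Wild-type replicate 2 stood apart from the other libraries. It had the lowest level of all 6 for 9 of 9 endothelial, 9 of 10 macrophage, 7 of 8 fibroblast and 5 of 5 podocyte markers. Fold changes that moved most without it are therefore given both ways.

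Purine nucleotides are taken apart in a fixed order and rebuilt by salvage. Outside the cell, CD39 (*Entpd1*) strips ATP and ADP to AMP and CD73 (*Nt5e*) turns AMP into adenosine, which signals through adenosine receptors. Inside the cell, adenosine deaminase (*Ada*), purine nucleoside phosphorylase (*Pnp*) and guanine deaminase (*Gda*) lead adenosine and guanosine towards hypoxanthine and xanthine, and xanthine dehydrogenase (*Xdh*) oxidises both to urate. Adenosine kinase (*Adk*), hypoxanthine phosphoribosyltransferase (*Hprt*) and adenine phosphoribosyltransferase (*Aprt*) instead return adenosine, hypoxanthine, guanine and adenine to the nucleotide pool. In the ischemic kidney ATP falls and its breakdown products build up, and *Xdh* can be converted to an oxidase form that makes reactive oxygen species.

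Of the 9 genes, *Xdh* was lower in *Ptpn6*+/mev kidneys at an adjusted p under 0.05, and none was higher at that threshold. Among all 13036 genes tested, 9 were called lower and 9 higher, 0.069% in each direction. The median log2 fold change of the 9 genes was -0.04, against -0.0024 over all genes tested. Without adjustment, 2 of the 9 genes (*Xdh* and *Adk*) were lower and 1 (*Aprt*) higher at a p under 0.05, as were 6.71% (lower) and 5.53% (higher) of all genes tested. The FPKM values of the groups did not overlap for 4 of the 9 genes. *Xdh* and *Adk* were lower in every *Ptpn6*+/mev mouse than in every wild-type mouse, as were 6.38% of all genes tested. *Pnp* and *Aprt* were higher in every *Ptpn6*+/mev mouse, as were 14% of all genes. The same 4 genes were apart on TMM-scaled counts, on which 9.8% of genes were apart lower and 9.64% apart higher.

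**Figure D1:**
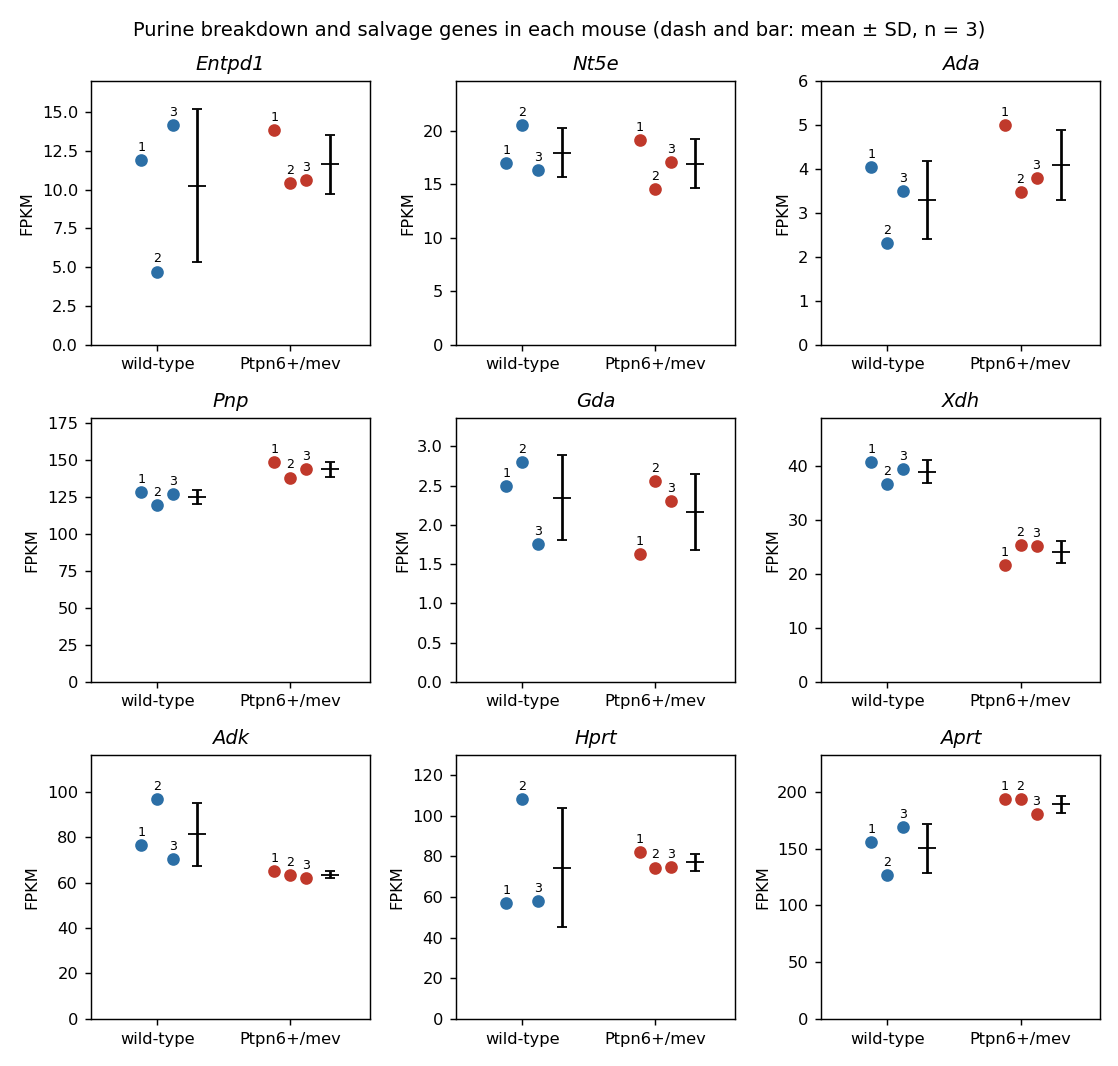
FPKM (vertical axes, each from 0) of the 9 genes in each of 3 wild-type mice (blue) and 3 *Ptpn6*+/mev mice (red), labelled by replicate number, with the mean and SD of each group in black. *Xdh* is 36.7 to 40.7 FPKM in wild-type and 21.7 to 25.4 FPKM in *Ptpn6*+/mev mice, while wild-type replicate 2 is the lowest point for *Entpd1* and the highest for *Hprt*.

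The levels of the 9 genes, which FPKM puts on a scale per length, spanned a wide range in the wild-type kidneys. *Aprt* had 150.4 ± 21.7 FPKM (SD, n = 3) and *Pnp* 125 ± 4.52, and their ranges overlapped. *Adk* at 81.2 ± 13.8 FPKM and *Hprt* at 74.5 ± 29.1 followed and did not differ beyond their spread. Below these 4, *Xdh* (39.0 ± 2.05 FPKM), *Nt5e* (17.9 ± 2.28) and *Entpd1* (10.3 ± 4.94) followed in that order without overlap between neighbours. *Ada*, at 3.28 ± 0.888 FPKM, and *Gda*, at 2.35 ± 0.539, were lowest and overlapped. In the *Ptpn6*+/mev kidneys *Hprt* (77.1 ± 4.34 FPKM) stood above *Adk* (63.5 ± 1.5), and the remaining order was the same.

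Neither *Entpd1* nor *Nt5e*, the 2 genes of extracellular ATP breakdown among the 9, differed by more than the spread between mice. *Entpd1* (chr19:40612366-40741602 in GRCm38, + strand), the ectonucleotidase of endothelium and leukocytes, had 11.9, 4.72 and 14.2 FPKM in wild-type replicates 1 to 3 and 13.9, 10.5 and 10.6 FPKM in *Ptpn6*+/mev replicates 1 to 3. The groups overlapped, and wild-type replicate 2 was at 0.362 of the level of the other wild-type kidneys. The log2 fold change was 0.24 (SE 0.32, adjusted p = 0.841) with that kidney and -0.09 without it (adjusted p = 0.801), and 0.06 to 0.45 without any other library. In the same kidney the summed level of 9 endothelial markers (*Pecam1*, *Cdh5*, *Kdr* and others) was 132 FPKM, against 337.5 to 341.5 in the other wild-type and 309.7 to 317.3 in the *Ptpn6*+/mev kidneys. The summed level of 10 macrophage markers was 117 FPKM there, against 181 to 287 in the other 5 kidneys. The part of these cells in the *Entpd1* value was not tested. In whole tissue, fewer cells of a type and less RNA per cell cannot be told apart.

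*Nt5e* (chr9:88327197-88372092, + strand), whose product makes adenosine in the proximal tubule brush border and the interstitium, had 17.0, 20.5 and 16.3 FPKM in wild-type and 19.1, 14.5 and 17.0 FPKM in *Ptpn6*+/mev mice. The groups overlapped, with the highest value in wild-type replicate 2 and the lowest in *Ptpn6*+/mev replicate 2. *Nt5e* had a log2 fold change of -0.16 (SE 0.15, adjusted p = 0.736), and -0.017 without wild-type replicate 2 (adjusted p = 0.961). It was -0.067 without *Ptpn6*+/mev replicate 2 and -0.26 without *Ptpn6*+/mev replicate 1. The ratio of *Nt5e* to *Entpd1* within a kidney was 1.43, 4.35 and 1.15 in wild-type and 1.38, 1.39 and 1.6 in *Ptpn6*+/mev mice. Wild-type replicate 2 again stood apart, and the other 5 kidneys lay between 1.15 and 1.6.

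Intracellular breakdown from adenosine to urate held 4 genes, of which *Xdh* alone passed the threshold. *Ada* (chr2:163726584-163750239, - strand), which deaminates adenosine to inosine, had 4.05, 2.31 and 3.49 FPKM in wild-type and 5.00, 3.48 and 3.79 FPKM in *Ptpn6*+/mev mice. The groups overlapped, and wild-type replicate 2 was again the lowest. *Ada* had a log2 fold change of 0.25 (SE 0.25, adjusted p = 0.764), which was 0.08 without that kidney and also without *Ptpn6*+/mev replicate 1, and 0.41 without wild-type replicate 1. With 43 to 87 counts per library, *Ada* was the least counted of the 9 genes.

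*Pnp* splits inosine and guanosine into the base and ribose-1-phosphate. It had 128, 119.9 and 127 FPKM in wild-type replicates 1 to 3 and 149, 138 and 144 FPKM in *Ptpn6*+/mev mice. Every *Ptpn6*+/mev kidney was above every wild-type kidney, by a small margin, and both groups were tight. Its log2 fold change was 0.13 (SE 0.08, adjusted p = 0.587), and it was 0.10 to 0.15 with any 1 library left out.

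*Pnp* was the only one of the 9 genes with fractional counts, and its reads were shared with its neighbour *Pnp2*, a near-identical copy on the same strand. Pnp-201, 1 of 5 transcript models of *Pnp* in GENCODE M21, lies at chr14:50944302-50953412, and *Pnp2* lies at chr14:50955992-50964749. The models overlap, since Pnp-202, at chr14:50944506-50965237, spans all of *Pnp2*. The identifier under which the table lists *Pnp* is a read-through model across both loci in the GENCODE M21 annotation. Over coding exons 2 to 5, 636 of 641 bases (99.2%) were the same in the reference. Exon 3 of each gene is shown because it is the shortest of these exons that differs at more than 1 base. It lies at chr14:50950258-50950361 (*Pnp*) and chr14:50963105-50963208 (*Pnp2*), both on the + strand, and capitals mark the bases at which the copies differ.
Pnp exon 3: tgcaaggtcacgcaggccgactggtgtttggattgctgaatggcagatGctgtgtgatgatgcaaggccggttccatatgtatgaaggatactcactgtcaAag
Pnp2 exon 3: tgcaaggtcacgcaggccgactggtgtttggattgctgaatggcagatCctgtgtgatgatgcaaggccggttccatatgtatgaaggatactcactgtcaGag
Exon 4 was identical over all 176 bases, so a read that falls wholly inside it cannot be assigned to either copy. It is shown as the longest such stretch, at chr14:50950543-50950718 in *Pnp* and chr14:50963390-50963565 in *Pnp2*.
Exon 4 of Pnp and Pnp2: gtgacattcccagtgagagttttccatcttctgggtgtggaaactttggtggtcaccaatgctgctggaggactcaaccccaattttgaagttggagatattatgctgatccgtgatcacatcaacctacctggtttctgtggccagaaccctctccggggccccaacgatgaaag

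The estimated counts of *Pnp* and *Pnp2* summed to a whole number in each of the 6 libraries, 1965 to 2307 fragments in all. *Pnp2* took 0.947% to 1.32% of that sum and had 1.39 to 1.81 FPKM. That share is the estimate of the authors' counting and its error is unknown, as is whether the row listed as *Pnp* covers the whole read-through locus. With both copies summed the log2 fold change was 0.12 (adjusted p = 0.597).

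*Gda* (chr19:21391307-21473445, - strand), which deaminates guanine to xanthine, had 2.49, 2.80 and 1.75 FPKM in wild-type and 1.63, 2.56 and 2.30 FPKM in *Ptpn6*+/mev mice. The groups overlapped widely, at 86 to 132 counts per library. The log2 fold change was -0.21 (SE 0.22, adjusted p = 0.776), and it was -0.07 without wild-type replicate 2, -0.11 without *Ptpn6*+/mev replicate 1 and -0.39 without wild-type replicate 3. The transcript length implied by its count and FPKM differed 1.31-fold between libraries, the most of the 9 genes, so part of the spread in its FPKM is a spread in the assumed length.

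*Xdh* (chr17:73883895-73950196, - strand) had the largest difference of the 9 genes. It was read at 40.7, 36.7 and 39.5 FPKM in wild-type replicates 1 to 3 and at 21.7, 25.4 and 25.2 FPKM in *Ptpn6*+/mev replicates 1 to 3. The lowest wild-type kidney was well above the highest *Ptpn6*+/mev kidney, and each group varied little, with 24.1 ± 2.06 FPKM (SD, n = 3) in *Ptpn6*+/mev mice. The counts were 1026 to 2247 per library, so counting error was small. The fitted level in *Ptpn6*+/mev kidneys was 58.9% of wild-type (log2 fold change -0.76, SE 0.09, adjusted p = 0.0366 by edgeR's quasi-likelihood test), the 12th smallest p of the 13036 genes. Its log2 fold change was -0.81 to -0.70 in the fits without 1 library. The adjusted p rose to 0.141, 0.0888 and 0.214 without *Ptpn6*+/mev replicates 1, 2 and 3 and to 0.156 without wild-type replicate 1. It was 0.00723 without wild-type replicate 2 and 0.0376 without wild-type replicate 3. In limma on log2 FPKM it was 0.0555 with a pseudocount of 1 and 0.0568 with 0.1. *Xdh* is expressed in tubule cells and endothelium. The summed level of 8 proximal tubule markers was also lower, at 682 to 879 FPKM in wild-type and 578 to 667 FPKM in *Ptpn6*+/mev kidneys, by a small margin. Only 2 of the 8, *Cubn* and *Slc13a3*, were lower without overlap on FPKM, beside 6.38% of all genes tested. *Slc5a2* and *Slc5a12* were at -0.04 and 0.01. Of those markers, 7 of 8 had a log2 fold change below 0 (median -0.40) and none passed the threshold, but 3 of the 8 did without wild-type replicate 2, all lower (*Lrp2*, *Cubn* and *Slc13a3*, adjusted p = 0.0354, 0.0465 and 0.0382), beside 1.8% of all genes tested in that fit. The part of proximal tubule RNA in the *Xdh* difference was not tested.

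The ratio of *Pnp* to *Xdh* within a kidney compared the enzyme that supplies hypoxanthine with the enzyme that oxidises it. It was 3.15, 3.26 and 3.22 in wild-type and 6.85, 5.45 and 5.73 in *Ptpn6*+/mev kidneys. The means were 3.21 ± 0.0606 and 6.01 ± 0.741 (SD, n = 3), and the groups did not overlap, which follows from *Pnp* being higher and *Xdh* lower in every *Ptpn6*+/mev kidney. Wild-type replicate 2 did not stand apart in this ratio.

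**Figure D2:**
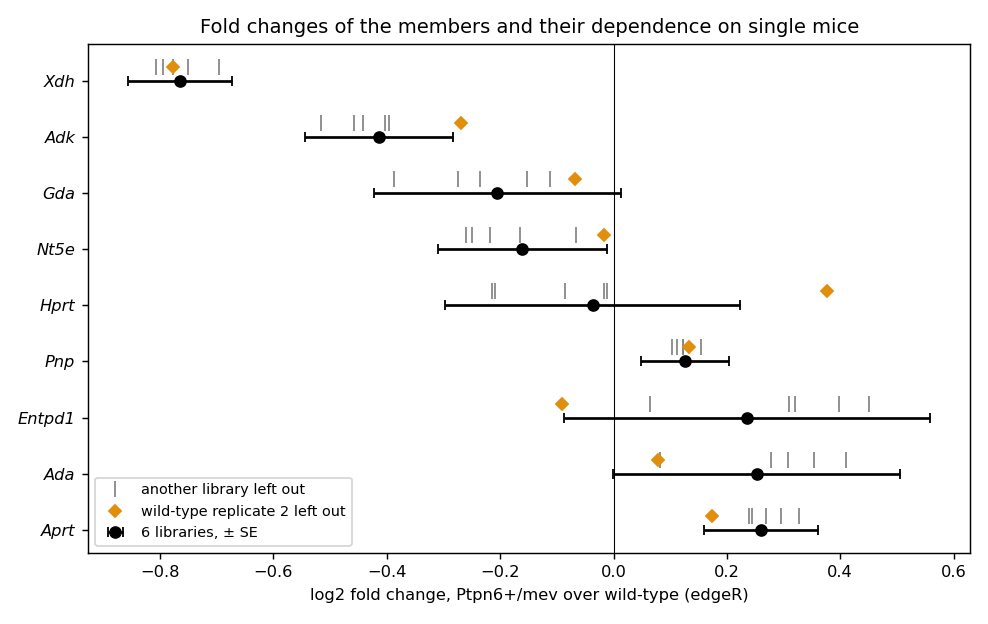
Log2 fold change of each gene, *Ptpn6*+/mev over wild-type (horizontal axis), from the fit to 6 libraries (black point with SE) and with 1 library left out (grey ticks, and orange diamonds where the library was wild-type replicate 2). *Xdh* lies between -0.81 and -0.70 throughout, whereas *Hprt* moves from -0.04 to 0.38 and *Entpd1* from 0.24 to -0.09 without wild-type replicate 2.

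The 3 salvage genes had fold changes in both directions, and none passed the threshold. *Adk* (chr14:21052574-21448569, + strand), which phosphorylates adenosine to AMP and so competes with *Ada* for it, had 76.6, 96.7 and 70.2 FPKM in wild-type and 65.1, 63.3 and 62.1 FPKM in *Ptpn6*+/mev mice. Every *Ptpn6*+/mev kidney was below every wild-type kidney, and wild-type replicate 2 was the highest of all. *Adk* had a log2 fold change of -0.41 (SE 0.13, adjusted p = 0.247) and -0.27 without that kidney (adjusted p = 0.152). The ratio of *Adk* to *Ada* was 18.9, 41.8 and 20.1 in wild-type and 13.0, 18.2 and 16.4 in *Ptpn6*+/mev kidneys. The groups did not overlap, but wild-type replicate 1 and *Ptpn6*+/mev replicate 2 lay close together.

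*Hprt* (chrX:52988137-53021659, + strand), which returns hypoxanthine and guanine to IMP and GMP and is often used as a reference gene, had 57.3, 108 and 58.2 FPKM in wild-type and 82.1, 74.6 and 74.7 FPKM in *Ptpn6*+/mev mice. All 3 *Ptpn6*+/mev kidneys lay between wild-type replicate 2 above and the other wild-type kidneys below. Wild-type replicate 2 had 1.87 times the level of the other wild-type kidneys. The log2 fold change was -0.04 (SE 0.26, adjusted p = 0.976), and it turned to 0.38 without that kidney (adjusted p = 0.0681). It was also 0.11 in limma on log2 FPKM, so no direction is given for *Hprt*.

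*Aprt* (chr8:122574635-122576909, - strand), which turns adenine into AMP, had 156, 127 and 169 FPKM in wild-type and 194, 194 and 180.2 FPKM in *Ptpn6*+/mev mice. Every *Ptpn6*+/mev kidney was above every wild-type kidney, of which replicate 2 was the lowest. *Aprt* had a log2 fold change of 0.26 (SE 0.10, adjusted p = 0.344), and 0.17 without that kidney (adjusted p = 0.328). The ratio of *Aprt* to *Hprt*, the 2 phosphoribosyltransferases, was 2.72, 1.17 and 2.91 in wild-type and 2.36, 2.60 and 2.41 in *Ptpn6*+/mev kidneys. Only wild-type replicate 2 lay outside 2.36 to 2.91.

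Set against the mean of all 6 libraries, wild-type replicate 2 departed in opposite directions for different genes. It held 43.1% of the mean for *Entpd1*, 62.7% for *Ada* and 74.6% for *Aprt*, and 118% for *Nt5e*, 124% for *Gda*, 134% for *Adk* and 143% for *Hprt*. It was the lowest of all 6 for *Entpd1*, *Ada*, *Pnp* and *Aprt* and the highest for *Nt5e*, *Gda*, *Adk* and *Hprt*. *Xdh* was the exception, at 116% of the mean and within the range of the other libraries. In the same kidney the summed fibroblast markers were at 29.4% and the summed endothelial markers at 45.3% of their means.

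**Figure D3:**
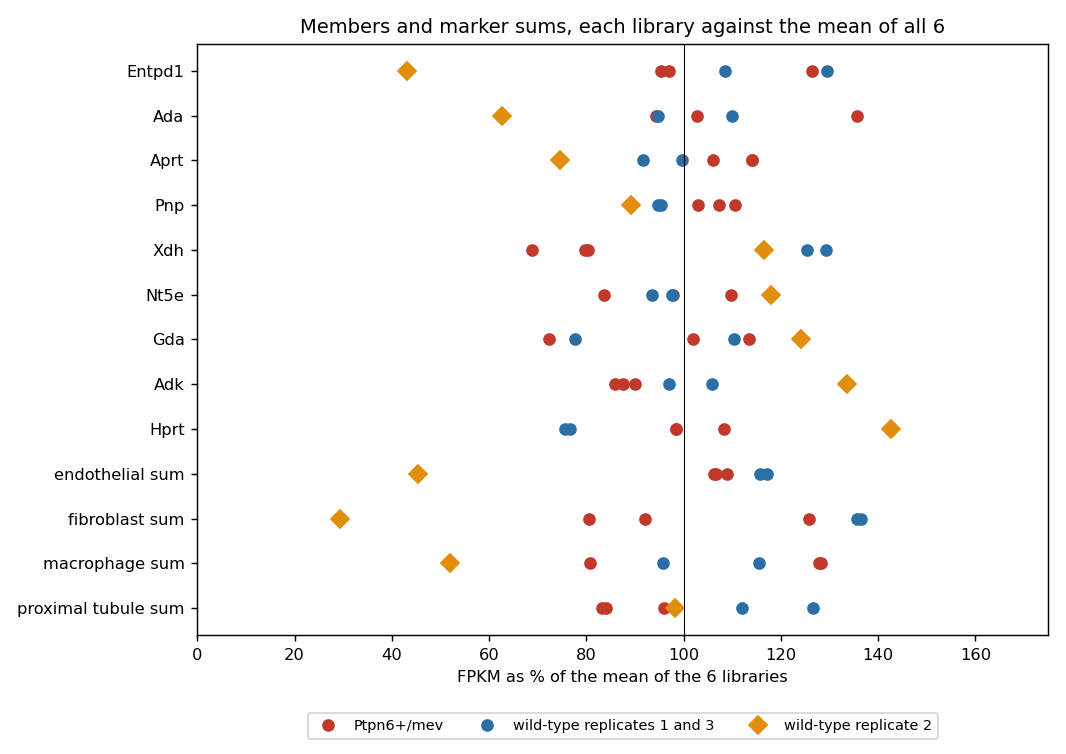
FPKM in each library as a percentage of the mean of the 6 libraries (horizontal axis) for the 9 genes and 4 summed marker lists, with *Ptpn6*+/mev kidneys in red, wild-type replicates 1 and 3 in blue and wild-type replicate 2 as an orange diamond. The diamond is the lowest point for *Entpd1* (43.1%) and for the summed endothelial markers (45.3%) and the highest for *Hprt* (143%).

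Around the 9 genes, 78 further symbols of purine metabolism, nucleoside and urate transport and adenosine sensing were taken by function. *Tk1*, listed among the salvage kinases, acts on thymidine, a pyrimidine nucleoside. The table held 77 of them, and 70 passed the filter on low counts. *Slc22a8* was lower at an adjusted p under 0.05 and none was higher, against 0.069% of all genes in each direction. Of the 70 genes, 49 had a log2 fold change below 0 and 21 above, with a median of -0.14. Without adjustment 15 were lower and 5 higher at a p under 0.05, beside 6.71% and 5.53% of all genes tested. Leaving out wild-type replicate 2 gave 6 called genes (*Alpl*, *Slc17a3*, *Slc22a12*, *Slc22a6* and *Slc22a8* lower, *Tk1* higher), leaving out wild-type replicate 3 gave 4 (*Ak4*, *Alpl*, *Slc22a12* and *Slc22a6*), and leaving out any other library gave none. Calls over all genes rose in the same fits, from 18 to 237 (1.8% of those tested) without wild-type replicate 2 and to 67 (0.508%) without wild-type replicate 3.

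**Figure D4:**
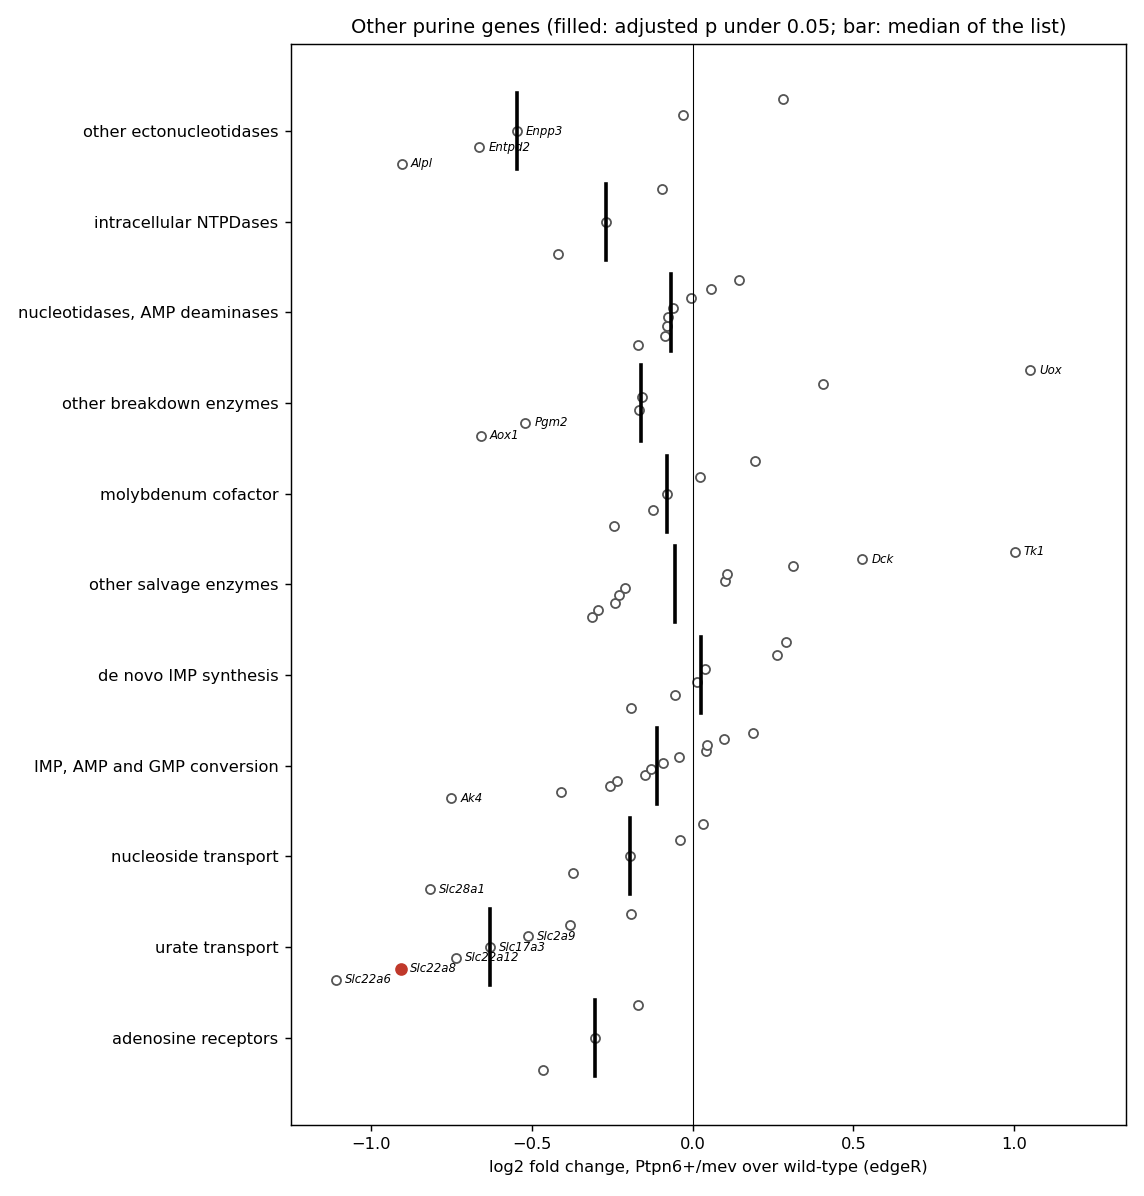
Log2 fold change, *Ptpn6*+/mev over wild-type (horizontal axis), of the 70 further purine genes in 11 groups by function, with each group's median as a bar and genes beyond 0.5 named. The 7 urate transporters all lie below 0 with a median of -0.63, and *Slc22a8*, the filled point, is the only gene with an adjusted p under 0.05.

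Transporters that carry urate and other organic anions in the proximal tubule all had fold changes on the same side. The log2 fold change was below 0 for 7 of 7 (median -0.63), 5 were lower at an unadjusted p under 0.05, and for those 5 the groups did not overlap. Over all genes tested, 6.71% were lower at that p and 6.38% were apart lower on FPKM. *Slc22a8*, the basolateral transporter OAT3, had 21.3, 24.9 and 24.7 FPKM in wild-type and 14.5, 11.9 and 13.2 FPKM in *Ptpn6*+/mev mice (log2 fold change -0.91, SE 0.12, adjusted p = 0.0443). Its groups were well apart. Its adjusted p was 0.0543 to 0.343 when any library other than wild-type replicate 2 was left out, and 0.0116 without that one. In limma on log2 FPKM it was 0.0555 with a pseudocount of 1 and 0.0568 with 0.1.

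*Slc22a12*, which encodes URAT1 for urate reabsorption, had the highest level of the group. It was read at 467, 475 and 387 FPKM in wild-type and 249.9, 313 and 273 FPKM in *Ptpn6*+/mev mice (log2 fold change -0.74, SE 0.13, adjusted p = 0.0873). *Slc22a6*, encoding OAT1, had the largest fold change, with 180.0, 183 and 130.4 FPKM in wild-type and 71.4, 99.0 and 70.3 FPKM in *Ptpn6*+/mev mice (log2 fold change -1.11, SE 0.19, adjusted p = 0.0774). In both, every *Ptpn6*+/mev kidney was below every wild-type kidney. *Abcg2* and *Slc17a1* were the members of the group with overlapping values, and both were highest in wild-type replicate 2, without which their log2 fold changes were 0.13 and 0.03. Urate transporters are proximal tubule genes. The summed proximal tubule markers given beside *Xdh* were also lower in every *Ptpn6*+/mev kidney, and lowest among the wild-type kidneys in replicate 2, at 682 FPKM. The part of proximal tubule RNA in the transporter values was not tested.

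**Figure D5:**
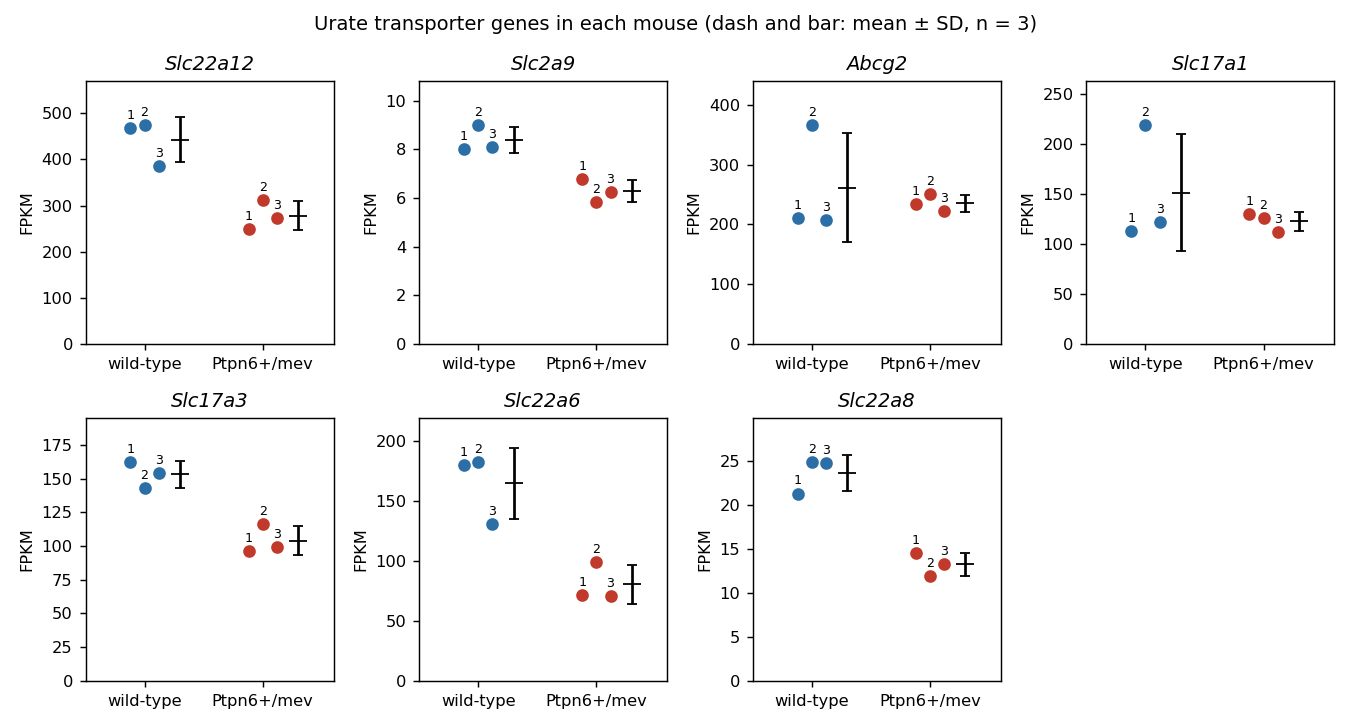
FPKM (vertical axes, each from 0) of the 7 urate transporter genes in each of 3 wild-type mice (blue) and 3 *Ptpn6*+/mev mice (red), labelled by replicate number, with the mean and SD of each group in black. For *Slc22a12*, *Slc2a9*, *Slc17a3*, *Slc22a6* and *Slc22a8* all red points lie below all blue points, and *Abcg2* and *Slc17a1* are highest in wild-type replicate 2.

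Enzymes that break purines down outside the 9 genes held no gene past the threshold. Of 5 tested ectonucleotidases, 4 were below 0, with a median log2 fold change of -0.55, and -0.33 without wild-type replicate 2. *Alpl*, the tissue-nonspecific alkaline phosphatase, which can also turn AMP into adenosine, was the most abundant of them. It had 146, 124.9 and 94.4 FPKM in wild-type and 64.9, 77.1 and 62.2 FPKM in *Ptpn6*+/mev kidneys (log2 fold change -0.91, SE 0.17, adjusted p = 0.0992), without overlap. All 3 intracellular NTPDases were below 0 (median -0.27), with *Entpd5* the most abundant at -0.42 (adjusted p = 0.374), and -0.25 without wild-type replicate 2. The 8 tested cytosolic and mitochondrial nucleotidases and AMP deaminases centred on -0.07, and on -0.02 without wild-type replicate 2. Their most abundant gene, *Nt5c*, was at 0.15 (adjusted p = 0.595), and at 0.08 to 0.18 with 1 library left out. Their largest fold change, that of *Nt5m*, was -0.17 (adjusted p = 0.664). Without wild-type replicate 2 *Nt5m* was at -0.11 and *Ampd2*, then the largest, at -0.15.

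Of 6 other tested breakdown enzymes, 4 were below 0, counting the row listed as *Pgm2*. That row was the most abundant at -0.52 (adjusted p = 0.126), with every *Ptpn6*+/mev kidney below every wild-type kidney. Its identifier was not found under this symbol in GENCODE M21. Whether it reads the enzyme that handles the ribose phosphate released by *Pnp* is not settled here. The row listed as *Pgm1* was at 0.02 (adjusted p = 0.949), with overlapping groups. *Uox*, the urate oxidase, had the largest fold change, 1.05 (adjusted p = 0.274), but a mean level of 2.16 FPKM in *Ptpn6*+/mev and 0.847 FPKM in wild-type kidneys. The molybdenum cofactor that *Xdh* needs is made by 5 tested genes. None passed the threshold and their median was -0.08, with *Mocs2*, the most abundant, at 0.02 (adjusted p = 0.966) and *Mocs1*, the largest change, at -0.24 (adjusted p = 0.451).

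Synthesis and salvage outside the 9 genes were close to 0 on the whole. The 10 tested salvage genes split evenly, 5 below and 5 above 0. *Ahcy*, the adenosylhomocysteinase that releases adenosine, was the most abundant, at -0.21 (adjusted p = 0.442). *Tk1*, a thymidine kinase of dividing cells, had 17.2, 7.82 and 14.95 FPKM in wild-type and 24.9, 32.2 and 26.3 FPKM in *Ptpn6*+/mev mice (log2 fold change 1.00, SE 0.25, adjusted p = 0.158). Its groups did not overlap, and without wild-type replicate 2 the adjusted p was 0.0349. Of the 6 genes of de novo IMP synthesis, *Paics*, the most abundant, was at 0.26 (adjusted p = 0.313) and *Ppat*, the committed step, at 0.29 (adjusted p = 0.353). Both were higher in every *Ptpn6*+/mev kidney on FPKM, as were 14% of all genes, but on TMM-scaled counts, where the share was 9.64%, the groups overlapped for *Ppat*. The median of the 6 genes was 0.03, and -0.10 without wild-type replicate 2.

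The 12 genes that interconvert IMP, AMP and GMP, or phosphorylate AMP and GMP further, had a median of -0.11. *Ak4*, a mitochondrial adenylate kinase, had the largest change, -0.75 (adjusted p = 0.176). Of 5 tested nucleoside transporters 4 were below 0. *Slc29a1*, the equilibrative transporter ENT1, was the most abundant, at 0.03 (adjusted p = 0.964, and -0.098 without wild-type replicate 2). *Slc28a1*, the concentrative transporter CNT1, was at -0.82 (adjusted p = 0.178). Its level was low, with means of 1.38 FPKM in *Ptpn6*+/mev and 2.33 FPKM in wild-type kidneys and 36 to 78 counts per library. The 3 tested adenosine receptor genes were at -0.47 (*Adora1*), -0.30 (*Adora2b*) and -0.17 (*Adora2a*), and their adjusted p-values were 0.675, 0.575 and 0.924. Without wild-type replicate 2, in which *Adora1* was highest and *Adora2a* lowest, *Adora1* was at 0.0046 and *Adora2a* at -0.55.

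Markers of further cell types in the kidney were read in the same libraries. No lymphocyte marker passed the filter on low counts, and their summed level was 0.47 to 3.07 FPKM. Fibroblast markers summed to 151 to 236 FPKM in *Ptpn6*+/mev kidneys, to 255 and 256 FPKM in wild-type replicates 1 and 3 and to 55.1 FPKM in wild-type replicate 2. Their median log2 fold change was -0.08, and -0.54 without wild-type replicate 2. In that fit 2 of the 8 passed the threshold, both lower (*Pdgfra* and *Dcn*, adjusted p = 0.0463 and 0.0354), beside 1.8% of all genes tested. All 8 proximal tubule and 5 podocyte markers and 7 of 8 distal nephron markers passed the filter. The distal nephron markers had a median log2 fold change of -0.19, and 0.21 without wild-type replicate 2. None of them passed the threshold in either fit. Tubular injury markers summed to 26692 to 32755 FPKM in *Ptpn6*+/mev and 30052 to 38734 FPKM in wild-type kidneys, with overlapping groups. Most of that sum was *Spp1*, at 20881 to 25507 FPKM in *Ptpn6*+/mev and 24406 to 32920 FPKM in wild-type kidneys (log2 fold change -0.38, adjusted p = 0.331, and -0.22 without wild-type replicate 2). Of the 9 injury markers, 6 had a log2 fold change above 0 and none passed the threshold, with a median of 0.08, and 0.34 without wild-type replicate 2. *Havcr1*, *Krt8*, *Krt18* and *Vcam1* were higher in every *Ptpn6*+/mev kidney than in every wild-type kidney, as were 14% of all genes on FPKM and 9.64% on TMM-scaled counts, with log2 fold changes of 0.27, 0.28, 0.55 and 1.05 (adjusted p = 0.325, 0.273, 0.196 and 0.188). Without wild-type replicate 2, *Krt18* had an adjusted p of 0.0376. The part of tubular injury in the values of the 9 genes was not tested.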

How the data were processed

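The authors removed low-quality reads, aligned the rest to GRCm38.p5 (Ensembl release 90) with TopHat and evaluated expression with Cufflinks, and their processing notes also list RSEM and Bowtie2. Which tool made the counts, and whether strand was used, is not given in the sources used here. The deposited table gives estimated counts and FPKM for 6 libraries. FPKM, scaled by the authors to transcript length and to all fragments, was used for levels and ratios. Estimated counts were rounded and tested with edgeR 4.0.16 (R 4.3.3): TMM, filterByExpr, quasi-likelihood F-test, Benjamini-Hochberg over 13036 genes, adjusted p under 0.05. The fit was tested on simulated data.

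The members and lists were chosen with earlier results of these data known. Named genes were every member and, of each further list, called genes, the most abundant gene and the largest fold change; other names were chosen after their values were seen. The value of 1 gene that this rule names is not reported here. Markers are summed FPKM. Alternatives used DESeq2 1.42.0 and limma 3.58.1 (pseudocounts 1 and 0.1), other filters and each library left out. Positions and exon sequences come from GENCODE M21 (GRCm38). Depth was 10271590 to 12361745 counts. Replicates of a group differed by 6.52 to 45.7 times the sampling variance, so none was a repeat of another. The members and further lists were matched by gene symbol. Pathway terms in the deposited table served to find the 178 genes of purine metabolism given under other observations.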

Additional observations from a re-analysis of the deposited data

How the results depend on the processing

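Over the 9 genes and 16 alternatives, 132 of 144 fold changes kept their direction and their side of the threshold, 7 (all of *Xdh*) kept the direction but lost the call, and 5 reversed. The *Xdh* call was lost, leaving 0 of the 9 genes called, in limma on log2(FPKM + 1) and log2(FPKM + 0.1) (adjusted p = 0.0555 and 0.0568), with the replicate number as a block (adjusted p = 0.147) and without each of 4 libraries, so that leaving out 1 library gave 0 to 1 called genes. The reversals were *Entpd1* without wild-type replicate 2, and *Hprt* in limma with either pseudocount (0.11 and 0.11), with the replicate block (0.045) and without wild-type replicate 2. With 1 library left out the log2 fold change of *Entpd1* ran from -0.091 to 0.45 and that of *Hprt* from -0.21 to 0.38, and the cause was not tested. Of the 70 further purine genes, 1 was called, but 10 with DESeq2's Wald test, 11 with edgeR's exact test, 3 without a filter, 0 in limma with either pseudocount, 0 with the block and 0 to 6 with 1 library left out. Calls over all genes, 18 in the reported fit, were 388 with DESeq2, 390 with the exact test, 52 without a filter, 22 and 19 in limma, 1 with the block, and 1 to 237 with 1 library left out. Whether replicate numbers shared between the groups pair the mice is not stated in the sources used here. Same-numbered deviations correlated at -0.14, -0.18 and -0.13. These deviations were taken from each group's own mean, which ties the correlations to one another, so they cannot decide it. Summing *Pnp* and *Pnp2*, chosen after seeing the data, changed no call. *Ada* and *Gda* have the fewest counts of the 9 genes, and the fold changes of *Entpd1* and *Hprt* have the largest SE.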

Other observations

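The pathway terms in the table put 178 genes in purine metabolism, of which 9 are the genes above and 44 belong to the further lists. Of the 154 that were tested, *Xdh* was the only one with an adjusted p under 0.05. Among the 105 tested genes outside the lists, 6 were lower and 7 higher at an unadjusted p under 0.05, beside 6.71% and 5.53% of all genes tested, and their median log2 fold change was 0.01. The 3 described next were chosen after their values were seen, as those with the smallest p. *Pklr*, the liver-type pyruvate kinase, which is also made in the proximal tubule, had 78.1, 113.8 and 83.0 FPKM in wild-type and 32.7, 41.8 and 32.4 FPKM in *Ptpn6*+/mev mice (log2 fold change -1.39, SE 0.22, adjusted p = 0.0685). *Rrm2*, the small subunit of ribonucleotide reductase, had 9.10, 7.58 and 13.97 FPKM in wild-type and 21.2, 31.1 and 25.3 FPKM in *Ptpn6*+/mev mice (log2 fold change 1.23, SE 0.22, adjusted p = 0.0852). The large subunit gene *Rrm1* was at 0.58 (adjusted p = 0.104). In both *Pklr* and *Rrm2* the groups did not overlap, and without wild-type replicate 2 the adjusted p was 0.0193 and 0.0301.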
